A study of Gallus gallus with 24 samples.

Results

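Female-limited genes are described here across the tissues of the adult chicken feather follicle. They were chosen on the measured values: a gene belongs if its lowest level among the 12 female libraries is above 0 and exceeds 5 times its highest level among the 12 male libraries. Levels are in CPM, the count of a gene divided by the total count of its library and scaled to a common total. The rule took 35 of the 17108 genes in the count tables. That females and males do not overlap in these genes therefore follows from the choice and is not a result.

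The libraries came from sickle feathers, which are feathers of the tail, of 2 adult females (birds 52 and 120, called female 1 and female 2) and 2 adult males (birds 53 and 68, called male 1 and male 2). Each bird gave 1 polyadenylated RNA library from each of 6 tissues, which makes 24 libraries. The lower follicle sheath (LFS) and upper follicle sheath (UFS) line the follicle wall. The pulp (PP) is the vascularised centre of a growing feather, and the collar epithelium (EPi) is the proliferating ring in which its branches form. The dermal papilla (DP) is the mesenchymal cell cluster that signals to the epithelium, and the papilla ectoderm (PE) is the ectoderm that covers it. The labels used here give no breed, age in weeks or treatment. Each group of 1 sex and 1 tissue has 2 libraries, 1 from each of 2 birds. The p-values rest on a spread pooled over the 6 tissues and moderated across genes. The main fit has no term for the bird, although the tissues share birds. Total counts ran from 12514383 to 31404619, and the library most similar to each library came from the same tissue for 23 of the 24. The exception was the lower sheath of female 1, which was closest to the dermal papilla of the same bird. The labelled tissues could not be checked against marker genes, for want of gene names. In whole-tissue samples such as these, fewer cells of a type and less RNA per cell cannot be told apart.

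In birds the female is the sex with unlike sex chromosomes, Z and W, whereas the male has a pair of Z chromosomes. Genes of the W chromosome are therefore carried by females alone. Many of those that remain have a related partner on the Z and are known as broadly expressed genes for basic cell functions. Chicken females are also known to transcribe non-coding RNA from a region of the Z, called MHM, that is methylated in males. The count tables give Ensembl identifiers without names, and 0 of the 17108 identifiers matched the RefSeq gene table used here, so chromosome, gene name and function of the 35 genes were not analysed here and no sequence is shown.

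The gap between these genes and the rest was wide. Among the 25 female-limited genes with any male count, the lowest female level was 14.8 to 288 times the highest male level. The 3 genes closest to the rule from above were ENSGALG00000029049.1 (0.943 CPM in its lowest female library and 0.0637 CPM in its highest male library, ratio 14.8), ENSGALG00000028014.1 (ratio 24.4) and ENSGALG00000000395.4 (ratio 42.4). The 3 closest from below were ENSGALG00000021883.2 (11.8 CPM in its lowest female library and 12.6 CPM in its highest male library, ratio 0.935), ENSGALG00000001607.4 (ratio 0.866) and ENSGALG00000008038.4 (ratio 0.865). Of all genes detected in every female library and in some male library, 0 outside the set had a ratio above 1. The same 35 genes came out with a ratio of 2 or of 10 in place of 5.

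**Figure D1:**
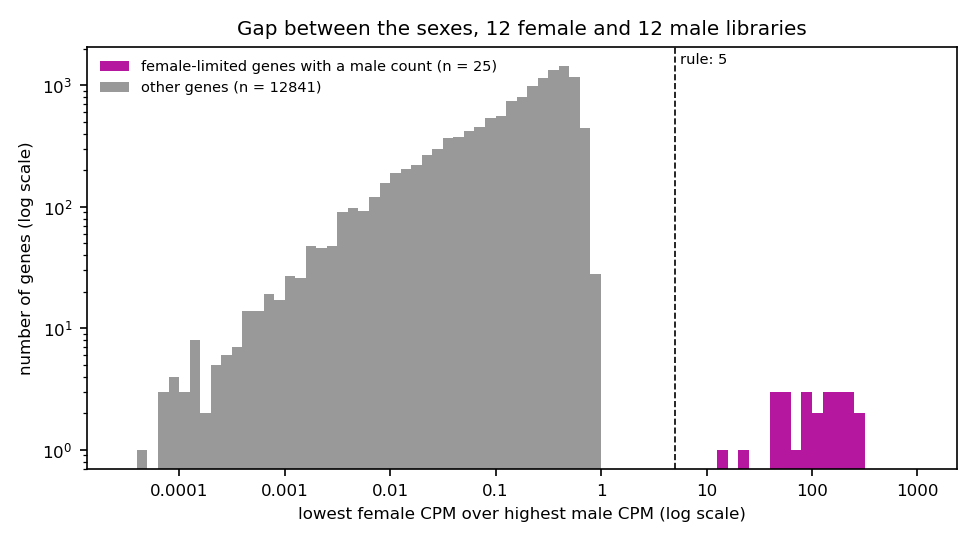
Number of genes (vertical axis, log scale) by the ratio of the lowest female to the highest male CPM (horizontal axis, log scale), for genes detected in all 12 female libraries and in at least 1 male library; the dashed line is the rule. The 25 female-limited genes with a male count lie between 14.8 and 288, and no other gene lies above 0.935; the 10 female-limited genes with 0 male counts have no finite ratio and are not drawn.

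Every female-limited gene was detected in every female library, which the rule requires, and 30 of the 35 stood at 1 CPM or more in all 12. At 10 CPM or more in all 12 stood 16 genes. Counts were not divided by transcript length, so levels are compared between tissues of one gene and not between genes. The counts were concentrated in few genes. ENSGALG00000022674.2, ENSGALG00000000386.3, ENSGALG00000001756.4, ENSGALG00000014366.4 and ENSGALG00000013312.4 together gave 50.3% to 61.6% of the female-limited counts of a female library. At the other end, ENSGALG00000001585.4 and ENSGALG00000026538.1 averaged 0.362 and 0.282 CPM in females, with as little as 1 count in a library, and their tissue profiles are correspondingly uncertain.

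Summed over the 35 genes, the level in females was highest in the collar epithelium, at 1834 CPM in female 1 and 1536 CPM in female 2. The other 10 female libraries held 924 to 1186 CPM. The upper sheath stood at 1186 and 1106 CPM, the pulp at 1120.2 and 1132, the papilla ectoderm at 1054 and 1152, the dermal papilla at 1014 and 995, and the lower sheath at 988 and 924. Both collar libraries thus lay above every other female library, while the 5 other tissues lay within a narrow band. ENSGALG00000022674.2 alone did not make the difference: without it the collar averaged 1416 CPM and the other tissues 853 to 970.02 CPM. No other gene was left out, and abundant genes weigh most in such a sum. ENSGALG00000000386.3 averaged 260 CPM in the collar and 78.7 to 169 CPM in the other tissues. For ENSGALG00000001756.4 the values were 262 CPM and 98.4 to 127 CPM. The summed rise therefore does not show a rise across the set.

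**Figure D2:**
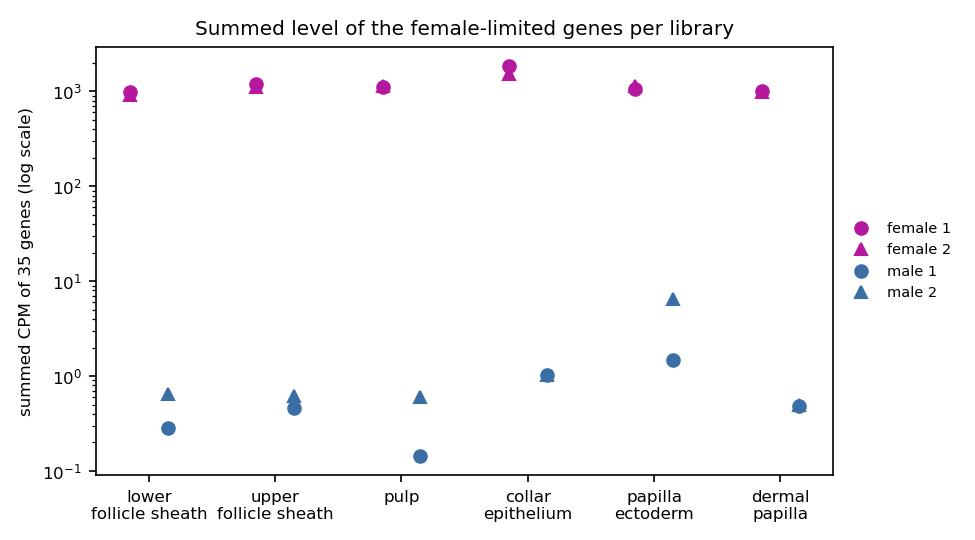
Summed CPM of the 35 female-limited genes (log scale) in each library, by tissue, with females in magenta left of males in blue; circles are bird 1 and triangles bird 2 of each sex. Female libraries lie between 924 and 1834 CPM with the collar epithelium on top, and male libraries between 0.146 and 6.43 CPM with the papilla ectoderm of male 2 on top.

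Male libraries were almost empty of these genes, with 372 counts in all against 321754 in the female libraries. For 10 of the 35 genes not a single male count was recorded. Among them, ENSGALG00000014441.4 averaged 19.8 ± 3.96 CPM in females (SD over the 12 libraries, from 6 tissues of 2 birds). Its pooled female level was at least 1947-fold higher than the male level, computed from a floor of 3 counts over all male libraries. For ENSGALG00000028913.1 the bound was at least 1038-fold. A further 10 genes had 1 to 3 male counts. The 15 genes with more male counts had pooled female levels 226 to 1878 times the male ones, the lowest ratio being that of ENSGALG00000027895.1.

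The few male counts were not spread evenly. The papilla ectoderm of male 2 held 202 of the 372, from 22 of the 35 genes, and that of male 1 held 30 from 9 genes. The other 10 male libraries together held 140 counts from 14 genes, with summed levels of 0.146 to 1.03 CPM. In the papilla ectoderm of male 2 the summed level was 6.43 CPM, which is 0.583% of the mean of the female papilla ectoderm. Gene by gene, the 14 genes at 20 CPM or more in the female papilla ectoderm stood in that male library at 0% to 1.31% of their female level, with a median of 0.583%. ENSGALG00000022674.2 had 53 counts there, 6 in the papilla ectoderm of male 1 and 0 in the other 10 male libraries. Other genes were spread over more male libraries. ENSGALG00000001756.4 had counts in all 12 male libraries (74 in all), as did ENSGALG00000013312.4 (32 in all). Both still had their highest male CPM in the papilla ectoderm of male 2, with 21 and 8 counts there. ENSGALG00000027895.1 had 29 male counts in 9 libraries and 0 in both male papilla ectoderm libraries. Where the male counts came from was not tested.

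Among females, the tissue levels of these genes varied less than those of most genes. The highest tissue mean was a median of 1.81 times the lowest over the 35 genes, against 3.49 times over all 13839 genes tested and 3.14 times over the 12792 genes tested that had a count in all 12 female libraries. At least 2-fold apart were the highest and lowest tissue in 16 of the 35 genes (45.7%), against a background of 73.7% of those 12792 genes. At least 4-fold apart was 1 of the 35, ENSGALG00000026538.1, against 41.5%. The rule leaves out any gene silent in one female library, and the second background shares that condition in part.

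Differences between the 6 tissues were tested across all genes with edgeR's quasi-likelihood F test on the 12 female libraries, with p-values adjusted by the Benjamini-Hochberg method over the 13839 genes and a threshold of 0.05. All 35 female-limited genes passed the filter on low counts. Of them 15 (42.9%) differed between tissues, against a background of 68.1% of all genes tested and 67.7% of those with a count in all female libraries. A further test asked, for each tissue, whether it differed from the mean of the other 5, with log2 differences given as the tissue minus that mean. In the collar epithelium 17 of the 35 genes were higher (background 31.0%) and 3 were lower (background 32.7%). The remaining 15 did not pass in the collar, with log2 differences of -0.44 to 0.39. Of the genes called in the collar, 14 also passed the F test and 6 did not (adjusted p 0.0606 to 0.182). Those 6 were ENSGALG00000013312.4, ENSGALG00000022685.2, ENSGALG00000022690.2, ENSGALG00000000140.3, ENSGALG00000029099.1 and ENSGALG00000026538.1. No share over all genes tested is given for this split. Of the 35 genes, 14 passed in none of the tissues. The share over all genes tested was not taken for that count, so it is a description only.

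The median log2 difference of the 35 genes in the collar was 0.39, against -0.09 over all genes tested. The scaling of the libraries moves both. With library totals in place of TMM factors, which correct for a few very abundant genes, the medians were 0.17 and -0.32. Then 14 of the 35 genes were higher in the collar (background 24.3%) and 3 were lower (background 37.6%). ENSGALG00000013312.4, ENSGALG00000000140.3 and ENSGALG00000029099.1 were the 3 that lost the call. Read in CPM without any factor, both collar libraries lay above the other 10 female libraries in 13 of the 35 genes, all 13 among the 17, against a background of 17.4%. Both lay below the other 10 in 3 genes, against 28.9%.

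In CPM without any factor, the other tissues stood apart from all else in fewer of the 35 genes. Both papilla ectoderm libraries lay below the other 10 female libraries in 5 genes (background 6.12%) and above them in 0 (background 2.31%). The 5 were ENSGALG00000000386.3, ENSGALG00000014184.2, ENSGALG00000014545.4, ENSGALG00000009227.4 and ENSGALG00000029049.1. Both dermal papilla libraries lay above the rest in 3 genes (background 7.62%), ENSGALG00000014003.4, ENSGALG00000028913.1 and ENSGALG00000029162.1, and below in 1 (background 2.36%), ENSGALG00000022674.2. Both pulp libraries lay above in 1 gene (background 14.2%), ENSGALG00000014366.4, and below in 2 (background 1.21%), ENSGALG00000014584.4 and ENSGALG00000000140.3. With TMM factors ENSGALG00000014366.4 had a log2 difference of 0.08 in the pulp and 0.26 in the collar. ENSGALG00000029162.1 had 0.21 in the dermal papilla and 0.31 in the collar. ENSGALG00000014003.4 and ENSGALG00000028913.1 had their largest log2 difference in the dermal papilla, at 0.99 and 1.11. For the lower sheath the counts were 0 above (background 2.85%) and 0 below (background 1.12%). For the upper sheath they were likewise 0 above (background 7.71%) and 0 below (background 2.72%).

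By tissue mean in CPM, 18 of the 35 genes were highest in the collar, against 25.3% of all genes tested. The dermal papilla was the highest tissue of 7 (background 15.5%), the pulp of 5 (background 25.8%) and the papilla ectoderm of 3 (background 7.90%). Those 3 rest on female 1: in female 2 their highest tissue was the pulp or the dermal papilla. Their papilla ectoderm levels in female 1 and female 2 were 30.8 and 19.5 CPM for ENSGALG00000027895.1, and 8.63 and 2.88 CPM for ENSGALG00000027170.1. For ENSGALG00000027080.1 they were 6.47 and 2.61 CPM. The lower sheath was highest for 1 (background 7.07%), ENSGALG00000001585.4, and the upper sheath for 1 (background 18.4%), ENSGALG00000026538.1, both of them near the detection limit. The lowest tissue was the papilla ectoderm in 10 of the 35 (background 18.4%) and the collar in 6 (background 43.3%). It was the lower sheath in 6 (background 8.73%), the dermal papilla in 6 (background 12.3%), the upper sheath in 5 (background 10.9%) and the pulp in 2 (background 6.39%). The collar was thus the commonest top tissue by mean CPM, and it was the highest in both females in 14 genes (background 19.1%). The pulp ranks depend on the scaling. With TMM factors ENSGALG00000014366.4 and ENSGALG00000028307.1 had log2 differences of 0.08 and -0.09 in the pulp and 0.26 and 0.34 in the collar. ENSGALG00000018479.3 had 0.24 in the pulp and 0.53 in the papilla ectoderm. ENSGALG00000027261.1 and ENSGALG00000029049.1 had their largest log2 difference in the pulp (0.27 and 0.36).

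**Figure D3:**
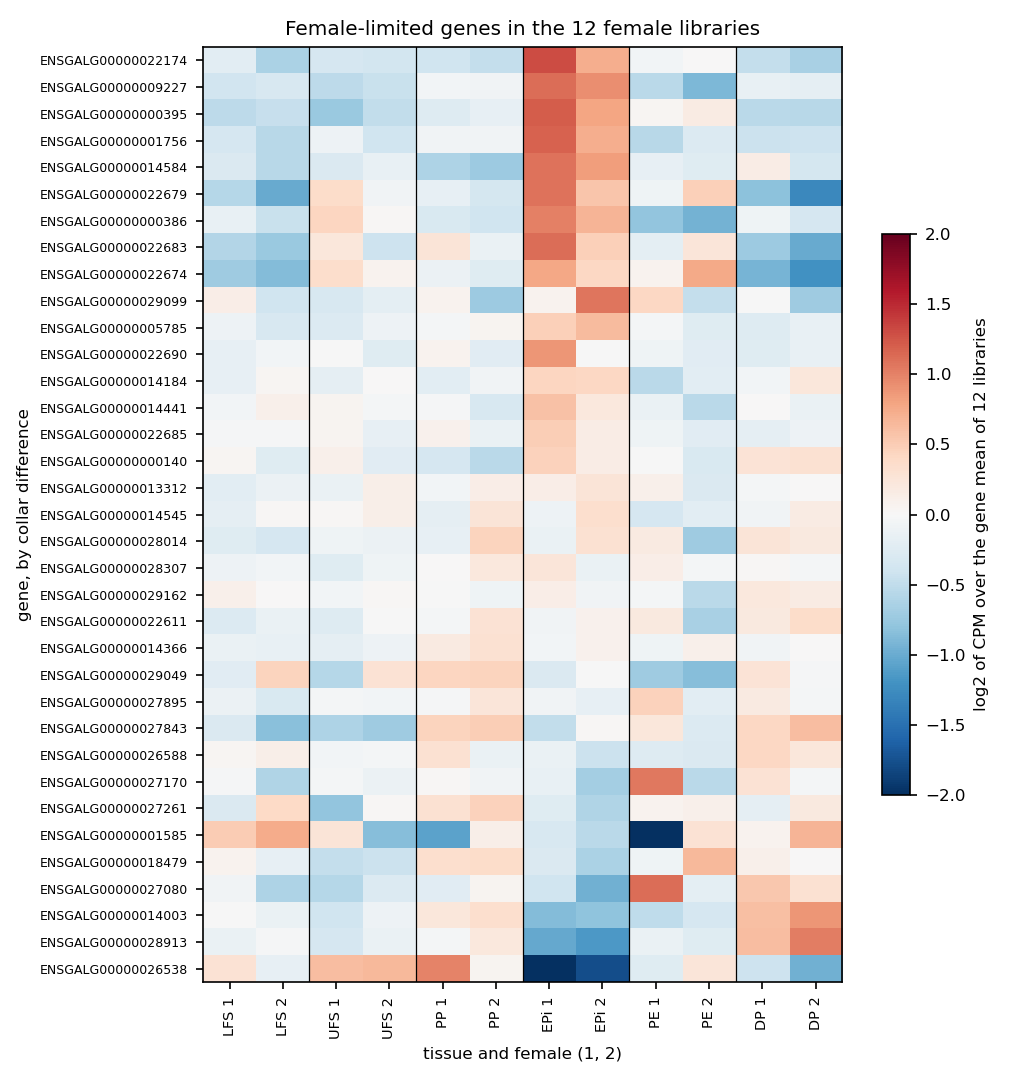
Level of each female-limited gene (rows, ordered by the collar difference) in the 12 female libraries (columns, by tissue and female), as log2 of its CPM over its own mean, with colours cut at -2 and 2. The block of red in the upper rows is the collar epithelium (EPi), in both females for most of the 17 genes that were higher there; the lowest rows are blue in the collar.

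The clearest collar profile was that of ENSGALG00000009227.4. It stood at 28.9 and 25.2 CPM in the collar of female 1 and female 2. Its levels elsewhere were 10.2 and 10.6 in the lower sheath, 9.20 and 9.67 in the upper sheath, 12.7 and 12.7 in the pulp, 9.11 and 7.10 in the papilla ectoderm and 11.97 and 11.7 in the dermal papilla. The collar was set apart from all other libraries and the females were close to each other (log2 difference 1.63 ± 0.15 SE, adjusted p = 2.82e-05).

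ENSGALG00000022174.2 had the largest collar difference, at 88.7 and 60.0 CPM in the collar. The papilla ectoderm came next at 34.6 and 36.3 CPM, and the 8 libraries of the other 4 tissues held 23.0 to 31.1 CPM (log2 difference 1.66 ± 0.18 SE, adjusted p = 5.03e-05). ENSGALG00000000395.4 followed the same order, with 67.8 and 50.7 CPM in the collar, 30.2 and 32.8 in the papilla ectoderm and 17.5 to 26.2 elsewhere (log2 difference 1.62 ± 0.16 SE, adjusted p = 3.37e-05). In both genes female 1 was the higher bird in the collar, and the collar did not overlap with any other tissue.

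ENSGALG00000001756.4 reached 303 and 221 CPM in the collar. Elsewhere it held 106 and 90.6 CPM in the lower sheath, 125 and 101 in the upper sheath, 127 and 127 in the pulp, 90.5 and 111 in the papilla ectoderm and 98.5 and 100.3 in the dermal papilla. Outside the collar its libraries thus stayed within a band of 90.5 to 127 CPM (log2 difference in the collar 1.54 ± 0.17 SE, adjusted p = 6.12e-05). ENSGALG00000014584.4 had 13.2 and 11.0 CPM in the collar and 3.76 to 6.85 CPM in the other 10 libraries (log2 difference 1.53 ± 0.19 SE, adjusted p = 0.000129).

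ENSGALG00000000386.3 combined a high collar with a low papilla ectoderm. Its levels were 289 and 230.1 CPM in the collar, 192 and 146 in the upper sheath, 134 and 113 in the dermal papilla, 129 and 105 in the lower sheath, 116 and 108 in the pulp and 82.5 and 74.8 in the papilla ectoderm. Both papilla ectoderm libraries were the lowest of the 12. Its log2 difference was 1.41 ± 0.16 (SE) in the collar (adjusted p = 6.60e-05) and -0.83 ± 0.19 in the papilla ectoderm (adjusted p = 0.0176). The second call was lost without either papilla ectoderm library (adjusted p 0.101 and 0.138).

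ENSGALG00000022674.2, ENSGALG00000022679.2 and ENSGALG00000022683.2 all passed as higher in the collar and had their lowest tissue mean in the dermal papilla. The first 2 also passed as lower in the dermal papilla, whereas ENSGALG00000022683.2 did not (log2 difference -0.94 ± 0.30 SE, adjusted p = 0.055). ENSGALG00000022674.2 stood at 302 and 236 CPM in the collar, 186 and 299 in the papilla ectoderm, 226 and 185 in the upper sheath, 162 and 150.2 in the pulp, 108 and 96.8 in the lower sheath and 92.7 and 76.1 in the dermal papilla. The females were in opposite order in the papilla ectoderm and in the collar, and the papilla ectoderm of female 2 reached the collar level. Its log2 difference was 1.13 ± 0.20 (SE) in the collar (adjusted p = 0.000935) and -1.16 ± 0.24 in the dermal papilla (adjusted p = 0.0083). The dermal papilla call was lost without either dermal papilla library (adjusted p 0.0521 and 0.12) and with all 24 libraries in the fit (0.0646).

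ENSGALG00000022679.2 had 82.1 and 56.4 CPM in the collar, 36.2 and 53.7 in the papilla ectoderm, 49.9 and 36.8 in the upper sheath, 34.5 and 30.1 in the pulp, 26.1 and 19.2 in the lower sheath and 21.8 and 15.7 in the dermal papilla. It was 1.44 ± 0.22 (log2, SE) above the other tissues in the collar (adjusted p = 0.000452) and at -1.12 ± 0.27 in the dermal papilla (adjusted p = 0.0183). Without either dermal papilla library the second call was lost (adjusted p 0.0656 and 0.209). Across the 12 female libraries the ratio of ENSGALG00000022674.2 to ENSGALG00000022679.2 stayed between 3.68 and 5.56, and their log2 levels had a Pearson r of 0.97. The libraries come from 2 birds and share tissues, so this is a description. Whether the 2 identifiers share reads as near-identical copies cannot be told from the counts.

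The other collar-higher genes were less extreme or less even between the birds. ENSGALG00000005785.4 had a log2 difference of 0.94 ± 0.12 (SE, adjusted p = 0.00016), ENSGALG00000022683.2 of 1.38 ± 0.26 (adjusted p = 0.00121), and ENSGALG00000014184.2 of 0.77 ± 0.16 (adjusted p = 0.00226). ENSGALG00000014441.4 and ENSGALG00000022685.2 stood at 0.77 and 0.66, ENSGALG00000000140.3 and ENSGALG00000013312.4 at 0.66 and 0.48. The collar call of ENSGALG00000000140.3 was lost in 6 of 19 alternatives. ENSGALG00000022690.2 (0.91 ± 0.26) and ENSGALG00000029099.1 (1.06 ± 0.35) were uneven between the birds. The collar over the mean of the other 5 tissues of the same bird, in CPM, was 1.95 in female 1 and 1.13 in female 2 for ENSGALG00000022690.2, and 0.991 in female 1 and 2.95 in female 2 for ENSGALG00000029099.1.

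Among the 17 collar-higher genes, the ratio of the collar to the mean of the same bird's other tissues was larger in female 1 in 14. With 1 collar library left out, the other is assumed to vary like the libraries of the other tissues. Without the collar of female 1, 10 of the 35 genes were higher in the collar (background 22.6%, against 31.0% with all female libraries) and 2 were lower (background 26.7%); ENSGALG00000014184.2, ENSGALG00000022683.2, ENSGALG00000013312.4, ENSGALG00000014441.4, ENSGALG00000022685.2, ENSGALG00000000140.3 and ENSGALG00000022690.2 lost the call (adjusted p 0.0531 to 0.555). Without the collar of female 2, 18 of the 35 genes were higher (background 27.5%) and 1 was lower (background 31.2%), and ENSGALG00000029099.1 lost the call (adjusted p = 0.288). In the collar the median log2 ratio of female 1 to female 2, in CPM, was 0.26 over the 35 genes and -0.22 over the 12792 genes with a count in all female libraries.

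**Figure D4:**
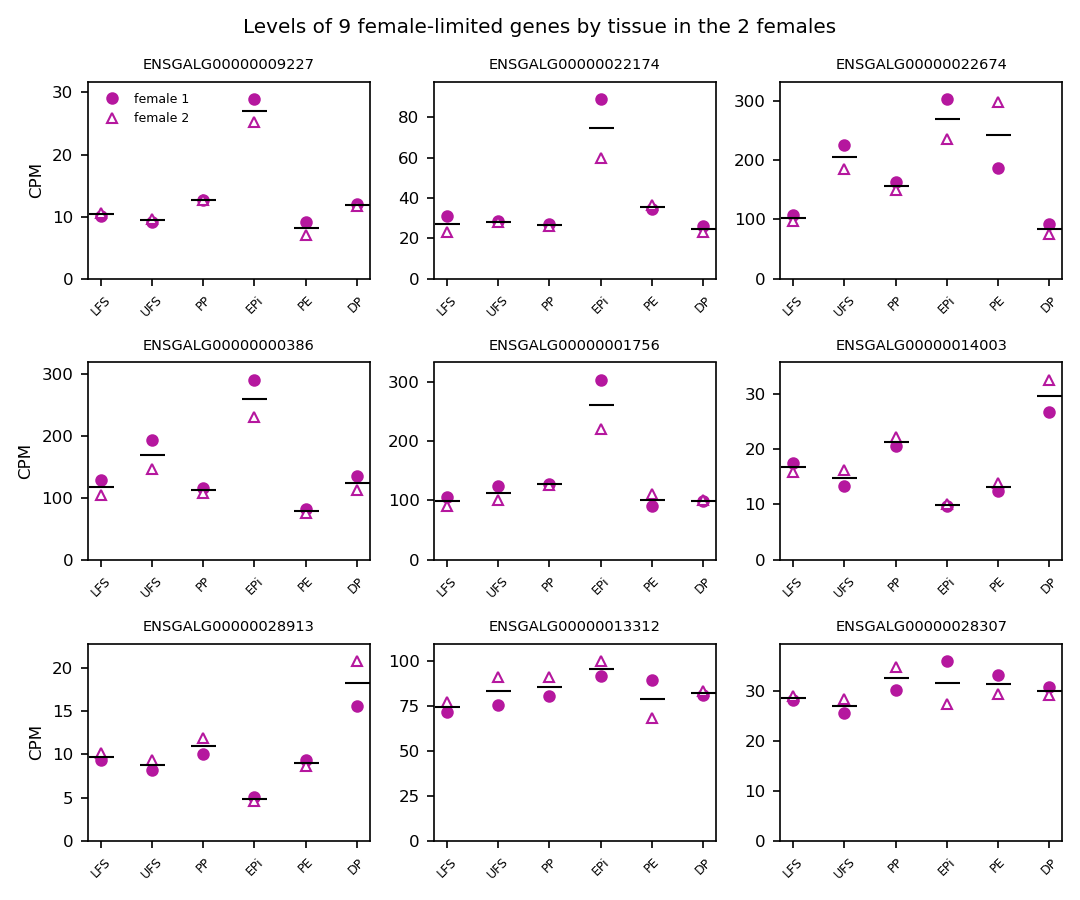
CPM of 9 female-limited genes (1 panel each, vertical axes from 0) in the 6 tissues of female 1 (filled circles) and female 2 (open triangles), with the mean as a bar. By mean, the first 5 panels are highest in the collar epithelium (EPi), although ENSGALG00000022674 is highest in the papilla ectoderm (PE) in female 2. ENSGALG00000014003 and ENSGALG00000028913 are lowest in the collar and highest in the dermal papilla (DP), and the last 2 panels are nearly level.

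The 3 collar-lower genes were ENSGALG00000014003.4, ENSGALG00000028913.1 and ENSGALG00000026538.1. ENSGALG00000014003.4 had 9.69 and 10.03 CPM in the collar and 26.7 and 32.4 in the dermal papilla, with 20.5 and 22.2 in the pulp, 17.5 and 16.0 in the lower sheath, 13.3 and 16.3 in the upper sheath and 12.4 and 14.0 in the papilla ectoderm. The females gave nearly the same order of tissues. Its log2 difference was -0.66 ± 0.18 (SE) in the collar (adjusted p = 0.0113) and 0.99 ± 0.16 in the dermal papilla (adjusted p = 0.00262). The collar call was lost without the collar of female 2 and with all 24 libraries in the fit (largest adjusted p over all alternatives 0.0706).

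ENSGALG00000028913.1, without any male count, had the same shape: 5.06 and 4.60 CPM in the collar, 15.6 and 20.8 in the dermal papilla and 8.15 to 11.9 in the other 8 libraries. It stood at -0.93 ± 0.22 (log2, SE) in the collar (adjusted p = 0.00491) and at 1.11 ± 0.19 in the dermal papilla (adjusted p = 0.00326). The ratio of ENSGALG00000014003.4 to it, in CPM, stayed between 1.32 and 2.18 across the 12 female libraries (Pearson r of log2 levels 0.95). Both dermal papilla calls were lost without the dermal papilla of female 2 (adjusted p 0.0852 for ENSGALG00000014003.4 and 0.104 for ENSGALG00000028913.1). ENSGALG00000026538.1 had only 1 and 2 counts in the collar libraries, 0.0482 and 0.0829 CPM, and 0.146 to 0.563 CPM elsewhere (log2 difference -1.92 ± 0.59 SE, adjusted p = 0.0181). That call was lost in 4 of 19 alternatives, among them DESeq2 and leaving out either collar library (largest adjusted p 0.117).

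Outside the collar few of the 35 genes passed. In the dermal papilla 2 were higher (background 15.7%), the 2 just described, and 2 were lower (background 5.80%), ENSGALG00000022674.2 and ENSGALG00000022679.2. In the papilla ectoderm 1 was higher (background 8.14%) and 2 were lower (background 6.89%). The higher one was ENSGALG00000022674.2 (log2 difference 0.79 ± 0.20 SE, adjusted p = 0.0311). Without the papilla ectoderm of female 2 its log2 difference was 0.36 (adjusted p = 0.446), and the call was lost in 8 of 19 alternatives. The lower ones were ENSGALG00000000386.3 and ENSGALG00000009227.4 (log2 difference -0.63 ± 0.18 SE, adjusted p = 0.0482). The call of ENSGALG00000009227.4 was lost in 14 of 19 alternatives (largest adjusted p 0.322).

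In the upper sheath 0 were higher (background 12.6%), with 0 at an unadjusted p under 0.05 and 0 by DESeq2, and 2 were lower (background 7.65%). These were ENSGALG00000027843.1, at 3.93 and 3.67 CPM in the upper sheath against 3.37 to 9.25 in the other 10 libraries (log2 difference -0.84 ± 0.25 SE, adjusted p = 0.0414), and ENSGALG00000000395.4 (-0.72 ± 0.19, adjusted p = 0.0254). The call of ENSGALG00000027843.1 was lost in 10 of 19 alternatives (largest adjusted p 0.252) and that of ENSGALG00000000395.4 in 6 of 19 (largest adjusted p 0.266), in both genes with all 24 libraries and without either upper sheath library. In the pulp 0 were higher (background 17.5%), again with 0 at an unadjusted p under 0.05 and 0 by DESeq2. There 1 was lower (background 7.67%), ENSGALG00000014584.4, with 4.03 and 3.76 CPM against 4.23 to 13.2 CPM in the other 10 libraries (log2 difference -0.90 ± 0.23 SE, adjusted p = 0.0192). This call was lost in 4 of 19 alternatives, among them all 24 libraries and leaving out either pulp library (largest adjusted p 0.187). With the bird as a block 3 were lower in the pulp, ENSGALG00000000386.3 (adjusted p = 0.0298) and ENSGALG00000000140.3 (adjusted p = 0.0487) being added. The backgrounds for the upper sheath and pulp belong to the adjusted edgeR calls of the main fit. No share over all genes is given for the counts at an unadjusted p, by DESeq2 or with the block. The sign of the pulp median depends on the scaling: 9 of the 35 genes lay above 0 with TMM factors and 20 with library totals. All genes tested moved as well. With TMM factors the median log2 difference in the pulp was -0.17 over the 35 genes and -0.01 over all genes tested. With library totals the medians were 0.04 and 0.21, so the 35 genes had the lower median in both.

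In the lower sheath edgeR called 0 of the 35 genes in either direction (background 11.9% higher and 2.99% lower). There 2 genes were lower at an unadjusted p under 0.05, and DESeq2 called 2 lower. The backgrounds belong to the adjusted edgeR calls, and no share over all genes is given for the unadjusted or DESeq2 counts. The lower sheath library of female 1, closest to the dermal papilla of that bird, and that dermal papilla library also differed from those of female 2 in collar genes. These were the 25 genes restricted to the collar in males, set by their male levels alone. Their median percentage of the male collar level was also higher in female 1 in the remaining tissues outside the collar. It was 0.427% in the pulp of female 1 and 0.091% in that of female 2. The papilla ectoderm had 0.852% and 0.124%, and the upper sheath 0.125% and 0.0422%. The gap was larger for the 2 libraries named: 11.8% in the lower sheath of female 1, against 0.0449% in female 2, and 3.30% in the dermal papilla of female 1, against 0.0264% in female 2. With both of these libraries left out, 16 of the 35 genes were higher (background 30.1%) and 2 lower (background 30.6%) in the collar, the 2 dermal papilla rises kept their calls, and the lower levels of ENSGALG00000022674.2 and ENSGALG00000022679.2 in the dermal papilla missed the threshold (adjusted p 0.0574 and 0.0671).

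**Figure D5:**
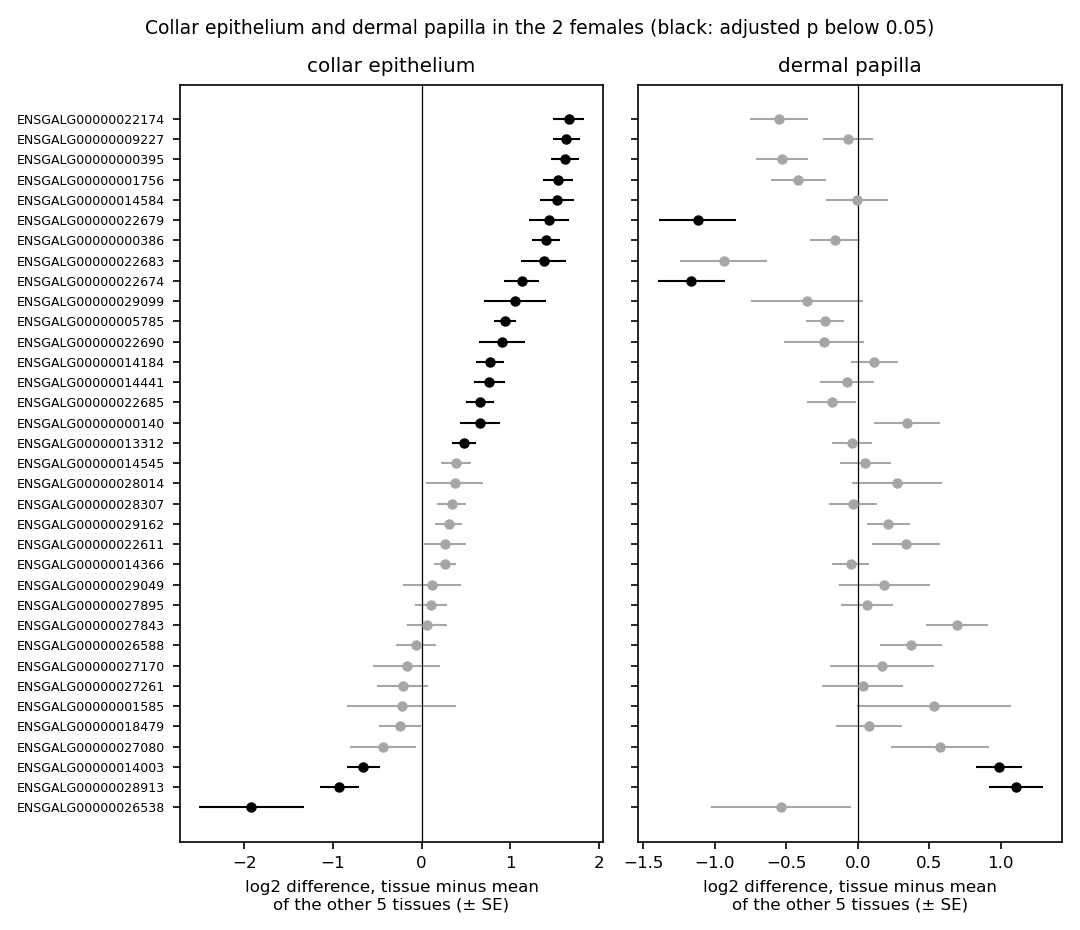
Log2 difference of each tissue from the mean of the other 5 among females, with its SE, for the 35 female-limited genes in the collar epithelium (left) and the dermal papilla (right), in the same gene order. Black points passed the threshold: 17 above and 3 below 0 in the collar, and 2 above and 2 below 0 in the dermal papilla.

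As given above, 14 genes passed in none of the tissues and 15 did not pass in the collar. The 14 have no share over all genes tested beside them. ENSGALG00000028307.1 had the smallest ratio between its highest and lowest tissue mean, 1.20. Its levels were 35.8 and 27.4 CPM in the collar and 25.6 to 34.7 in the other libraries, so that the collar libraries of the 2 females spanned most of the whole range. ENSGALG00000013312.4 came next with a ratio of 1.29 and 68.1 to 99.7 CPM over all female libraries. It passed as higher in the collar (91.8 and 99.7 CPM) by a log2 difference of 0.48 ± 0.13 (SE, adjusted p = 0.011). Both collar libraries lay just above the highest of the other 10, at 90.9 CPM. The call was lost without the collar of female 1 and with library totals in place of TMM factors.

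ENSGALG00000027895.1, with a ratio of 1.30, stood at 21.3 and 20.1 CPM in the collar and 18.1 to 30.8 elsewhere. ENSGALG00000014366.4 held 122 and 135 CPM in the collar and 111 to 157 CPM in the other libraries. The pulp (144 and 157 CPM) was on top in CPM without factors. With TMM factors its log2 difference was 0.26 ± 0.13 in the collar (SE, adjusted p = 0.0931) and 0.08 ± 0.13 in the pulp. A miss of the threshold does not show equal levels: with 2 birds a tissue, the SE of the collar difference in the 15 genes that did not pass ran from 0.13 to 0.61.

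By median, the 2 females were closer to each other in these genes than in all genes detected in every female library. The mean absolute log2 ratio between them over the 6 tissues had a median of 0.25 over the 35 genes, against 0.38 over the 12792 genes with a count in all female libraries. By tissue, the median of the 35 was largest in the collar (0.36, against 0.45 over the 12792) and the papilla ectoderm (0.32, against 0.37). In the other tissues it was 0.17 to 0.21. Single genes differed more, such as ENSGALG00000027170.1 in the papilla ectoderm (log2 ratio of female 1 to female 2 1.58). Female 1 was above female 2 in all 6 tissues in 2 of the 35 genes (background 5.94%), ENSGALG00000000386.3 and ENSGALG00000027170.1, and below in all 6 in 1 (background 3.91%), ENSGALG00000014545.4. The tissue of the highest level was the same in both females in 21 of the 35 genes (background 65.1%), and in 14 of the 35 it was the collar in both (background 19.1%).

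Over the 12 female libraries the 595 pairs among the 35 genes did not move as one group. Pearson r of the log2 levels had a median of 0.11, was above 0.9 in 5 pairs and below 0 in 260. Beside the pairs given above, the 5 were ENSGALG00000022679.2 with ENSGALG00000022683.2 (r 0.95), ENSGALG00000022685.2 with ENSGALG00000022690.2 (r 0.95) and ENSGALG00000022174.2 with ENSGALG00000000395.4 (r 0.94). The most opposed pair was ENSGALG00000022679.2 and ENSGALG00000028913.1 (r -0.87). All points share libraries and tissues, so these values describe the profiles alone.

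For the 3 genes with the highest mean level, genes outside the set with the most similar profile were looked for over the same 12 libraries. The search covered the 13839 genes tested, apart from the set itself. For ENSGALG00000001756.4 the closest was ENSGALG00000002490.4 (r 0.996), at 93.6 to 280 CPM in females, then ENSGALG00000015751.4 and ENSGALG00000026302.1 (both r 0.98). For ENSGALG00000000386.3 they were ENSGALG00000028573.1 and ENSGALG00000008813.4 (both r 0.98) and ENSGALG00000001302.4 (r 0.97). For ENSGALG00000022674.2 they were ENSGALG00000001915.4 (r 0.96), ENSGALG00000010399.3 and ENSGALG00000009728.4 (both r 0.95). All 9 had their highest tissue mean in the collar, as did the 3 genes they were matched to. The choice by correlation favours this, so it is not a result. ENSGALG00000002490.4 averaged 132 CPM in females and 120.3 CPM in males.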

How the data were processed

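Whole-number counts per gene were deposited by the authors, 1 table per library with 17108 Ensembl identifiers, per the file headers. STAR 2.4.1d, HTSeq 0.6.0, edgeR and the build galGal4 are named per the submitters' processing notes. Neither strand setting nor annotation release is given in the labels used here, so counts of overlapping, antisense or near-identical genes are uncertain. RNA was extracted with TRIzol and made into libraries with a TruSeq kit, per the labels' protocols.

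Total counts ran from 12514383 to 31404619 per library, so that 1 count was worth 0.0318 to 0.0799 CPM; bounds cover counting error only. The fit used the 12 female libraries, edgeR 4.0.16 in R 4.3.3 (TMM, filterByExpr with a minimum count of 10, glmQLFit and glmQLFTest, 6 residual degrees of freedom). It was also run on simulated independent counts without a bird effect. That run cannot check how the fit treats libraries that share a bird. DESeq2 1.42.0 was an alternative. Standard errors come from the F statistic. Correlations used log2(CPM + 0.5). Lists of W-linked genes and cell type markers could not be applied, because the identifiers had no names in the tables used here.

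The members, lists and tests were chosen with earlier results of these data known. The tissues of one sex come from the same 2 birds, so birds pair the samples: over 15 pairs of tissues, deviations of female 1 from the tissue means correlated at -0.05 to 0.62. Named genes were the 5 with the highest mean, the 5 with the largest and the 3 with the smallest ratio of tissue means, up to 2 per tissue and direction with the largest called difference and both libraries beyond the other tissue means, those nearest the rule and those with most male counts. Others are named where a count is small, after their values were seen.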

Additional observations from a re-analysis of the deposited data

How the results depend on the processing

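The set itself held 35 genes with TMM-scaled CPM, with ratios of 2 and 10 and without the papilla ectoderm. It held 35 to 39 without any one bird, the 35 being among them each time. Genes differing between tissues numbered 11 to 17 of the 35 with other scalings, filters and tools, a bird block or all 24 libraries. Over all genes tested, 9214 to 10293 differed in those settings. Collar-higher genes numbered 14 to 18 of the 35 there, and 3362 to 4484 of all genes tested. Collar-lower genes numbered 2 to 3 of the 35, and 4345 to 5198 of all genes tested.

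Small counts moved more. They are given without the share over all genes tested, so a shift common to all genes would not show. In either direction, DESeq2 called 2 of the 35 in the lower sheath and 4 in the pulp. Library totals gave 1 in the lower sheath and 1 in the upper sheath. With all 24 libraries 0 passed in the upper sheath, 0 in the pulp and 1 in the papilla ectoderm. Without the lower sheath and dermal papilla libraries of female 1, an alternative chosen after seeing the data like that of library totals, the counts were 0, 0 and 1 there and 2 in the dermal papilla. The bird as a replicate block gave 3 in the pulp and otherwise added ENSGALG00000014545.4 in the collar (adjusted p = 0.0288), ENSGALG00000009227.4 in the upper sheath (0.0492) and ENSGALG00000022683.2 in the dermal papilla (0.0431), and changed no other call. Leaving out one library gave 0 to 3 in the lower sheath, 0 to 4 in the upper sheath, 0 to 4 in the pulp, 0 to 4 in the papilla ectoderm and 0 to 9 in the dermal papilla.

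Of the 30 calls of a gene in a tissue, 10 held in all 19 alternatives, all of them in the collar, and 0 changed sign. The collar made up 20 of the 30 calls. Over all genes tested it also had the most calls of any tissue, 4285 higher and 4523 lower. The other tissues had 414 to 2419 per direction. The share of calls over all genes that held in every alternative was not taken, so the count of 10 is a description only. The summed level with TMM factors averaged 1882 CPM in the collar (SD 415, n = 2), at 2175 in female 1 and 1588 in female 2. It averaged 1112 CPM in the papilla ectoderm, 1027 in the upper sheath, 964 in the pulp, 963 in the dermal papilla and 956 in the lower sheath. Without factors and without ENSGALG00000022674.2, the summed level averaged 1416 CPM in the collar, 970.02 in the pulp and 940.4 in the upper sheath. The dermal papilla then averaged 920.4 CPM, the papilla ectoderm 860.3 and the lower sheath 853. The cause of these shifts was not tested, beyond the smaller set of libraries or genes in each. With 2 birds per sex, small differences are not detectable.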
